A study of Mus musculus with 18 samples.

Results

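The MHC class II genes and Ciita were followed in immune cells of tumour-bearing mouse livers. The set is 10 genes of the 48440 in the count table, matched by symbol: H2-Aa, H2-Ab1, H2-Eb1, H2-DMa, H2-DMb1, H2-DMb2, H2-Oa, H2-Ob, Cd74 and Ciita. Every one passed the low-count filter in each sorted fraction. The mice, C57BL/6J animals obtained at an age of 7 weeks, carried liver tumours made by hydrodynamic tail vein injection of Ras/Myc, a method that carries the DNA mainly into hepatocytes. Treated mice received polyIC, a synthetic double-stranded RNA, (4 mg/kg), and anti PD-L1, an antibody that blocks the ligand of PD-1 (200 µg), every other day for 6 doses. The dosing protocol also lists an antibody to VEGF-A, although no treatment label used here names it. Untreated mice bore tumours too. Their library titles name the Ras/Myc injection, while those of treated mice name only an oncogene-induced primary HCC (liver cancer) model. CD45+ cells of both kinds of mice were divided by sorting into a CD3-CD8- fraction, a CD3+CD8+ fraction and a CD3+CD8- fraction, which gave 6 groups of 3 libraries each.

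MHC class II molecules carry peptides from endocytosed proteins to the surface of B cells, dendritic cells and macrophages, where CD4 T cells read them. The alpha and beta chains assemble on the invariant chain, encoded by Cd74, which fills the groove until lysosomal proteases trim it. H2-M (H2-DMa with H2-DMb1 or H2-DMb2) then exchanges the remnant for a peptide, and H2-O (H2-Oa with H2-Ob), found mostly in B cells, restrains H2-M. CIITA is a coactivator that binds no DNA itself and acts through RFX, NF-Y and CREB factors on the X and Y boxes of these promoters. C57BL/6 mice have no working H2-Ea, so H2-Eb1 is transcribed but no I-E molecule reaches the surface. In the liver, class II is carried by B cells, dendritic cells and Kupffer cells, the resident macrophages.

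Total counts ranged from 1829155 to 28233682 per library. In 3 libraries, untreated CD3+CD8+ numbers 1 and 18 and treated CD3+CD8- number 2, ribosomal loci took 79.73 to 87.04% of the counts, against 0.35 to 2.26% in the other 15. Levels are CPM, counts relative to library size after TMM scaling over all 18 libraries, unless FPKM, which also divides by transcript length, is named. Libraries are named by the number in their labels, and the labels do not say whether a number is an animal. The letters before the number were C in untreated and P in treated libraries, but CV for untreated number 6 and PL for treated number 19. What these letters mark is not known here. The title of the treated CD3+CD8- library taken as number 11 repeats a digit. No pair of libraries held identical counts. The fraction sorted as CD3-CD8- did not lack T cell transcripts: 8 T cell markers summed to 2960.6 to 4729.7 CPM in treated libraries and 468.8 to 1339.3 CPM in untreated ones, beside 4072.4 to 5064.1 CPM in treated CD3+CD8+ cells. Nor was the fraction free of transcripts of Cd8a, a chain of CD8, which was at 553.1 to 1048.6 CPM in treated and 59.9 to 294.5 CPM in untreated CD3-CD8- libraries, beside 1100.7 to 1423.9 CPM in treated and 273.1 to 963.6 CPM in untreated CD3+CD8+ libraries. The library labelled untreated CD3+CD8- 6 also went against its label, with 628.2 CPM of Cd8a and 538.9 CPM of Cd8b1, the other chain, where the other 5 CD3+CD8- libraries had 4.33 to 19.7 CPM of Cd8a. The treatment comparison in CD3+CD8- cells and the untreated contrast of CD3-CD8- with CD3+CD8- cells are therefore also given without library 6. Other results that use library 6 keep it.

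RefSeq promoter sequences (GRCm38.p6) were found for 7 of the 10 genes. The 4 printed here are the chromosome 17 promoters whose RefSeq start lies within 50 bases of the end of the gene's locus in the deposited table, and they are shown for the Y box letters that NF-Y, one of the factors that recruit CIITA, is known to bind. Each runs from 130 to 30 bases before the start, 5′ to 3′ on the gene's strand, and the capitals GATTGG mark the core of the Y box, the NF-Y site (CCAATC where it stands on the other strand). Other capitals mark AACNGATG, a core of the X box bound by RFX, or TGACGTCA, a CREB-type palindrome. The regions are chr17:34092249-34092349 (+) for H2-Oa, chr17:34238775-34238875 (+) for H2-Ob, chr17:34287853-34287953 (−) for H2-Aa and chr17:34305737-34305837 (+) for H2-Eb1.
H2-Oa: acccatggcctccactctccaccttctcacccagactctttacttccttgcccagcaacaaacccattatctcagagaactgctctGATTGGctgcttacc
H2-Ob: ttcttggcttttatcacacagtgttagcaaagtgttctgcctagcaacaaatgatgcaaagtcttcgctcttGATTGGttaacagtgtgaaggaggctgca
H2-Aa: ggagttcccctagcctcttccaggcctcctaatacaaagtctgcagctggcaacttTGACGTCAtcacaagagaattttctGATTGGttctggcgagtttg
H2-Eb1: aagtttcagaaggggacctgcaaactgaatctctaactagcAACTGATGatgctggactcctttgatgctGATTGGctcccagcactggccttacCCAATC

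Counted from the transcription start, the Y box core began at −44 in H2-Oa, −58 in H2-Ob, −49 in H2-Aa and −60 in H2-Eb1, which also held it on the other strand from −35. Among the promoters not printed, it began at −62 in H2-DMb1, −91 in H2-DMb2 and −199 in 1 of the windows of H2-DMa. On the gene's strand, with a start between 100 and 40 bases upstream, it was present in 3.32% of 32851 RefSeq promoter windows of 300 bases, and anywhere on either strand in 16.1%. The X box core was found upstream of the Y box in H2-Eb1 (from −89), H2-DMb1 (from −92) and H2-DMb2 (from −121), and in 0.31% of windows on the gene's strand with a start between 100 and 40 bases upstream, or 2.32% anywhere on either strand. The palindrome was found in H2-Aa and in 1.79% of windows. No motif searched overlapped another in these promoters. These motifs were chosen after the sequences had been seen, and a match is only a match of letters.

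Of the 10 genes, 8 lie on chromosome 17: H2-Oa at 34092340 to 34095234, H2-DMa at 34135182 to 34139101, H2-DMb2 at 34143307 to 34151553, H2-DMb1 at 34153072 to 34160230, H2-Ob at 34238903 to 34245907, H2-Ab1 at 34263209 to 34269418, H2-Aa at 34282744 to 34287827 and H2-Eb1 at 34305877 to 34316199. Ciita lies on chromosome 16 at 10488178 to 10527564 and Cd74 on chromosome 18. These are the positions in the deposited FPKM table, whose build is not named. Every member lay on the same chromosome in GENCODE vM21, a GRCm38 release.

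In CD3-CD8- cells, 9 of the 10 genes fell with treatment, and only H2-Ob did not pass the test. The drop was widest for Cd74 and narrowest, among the genes that passed, for H2-Aa. The edgeR quasi-likelihood test, adjusted over 13781 genes, called 3522 genes (25.6%) in either direction and 2115 (15.3%) lower. In CPM the same 9 were lower without overlap between the groups, as were 20.7% of all genes. The median log2 fold change was −1.43 over the 10 genes and −0.06 over all genes tested. In a sorted bulk fraction, fewer class II-bearing cells and less class II RNA per cell cannot be told apart.

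**Figure D1:**
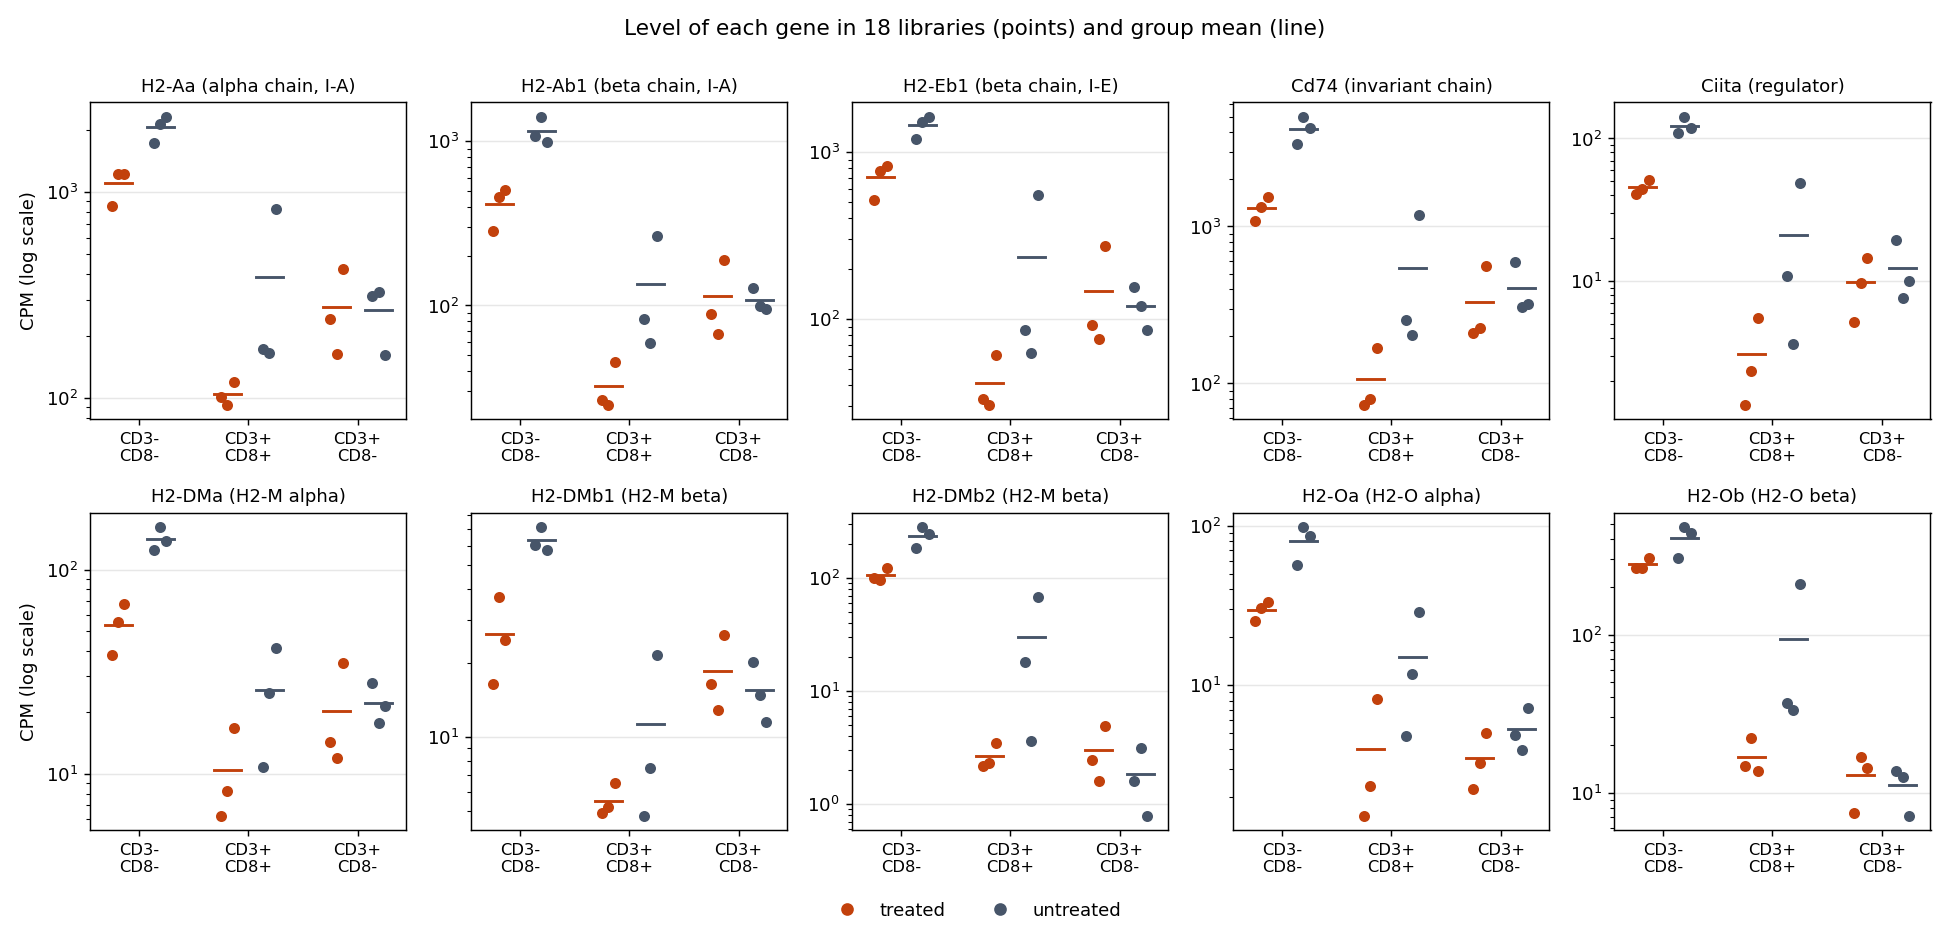
Level of each of the 10 genes (CPM, log axis) in all 18 libraries; points are libraries, lines are group means, and treated libraries stand left of untreated ones within each sorted fraction. In CD3-CD8- cells the treated points of 9 genes lie below every untreated point, and those of H2-Ob overlap.

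The chains of the classical molecules came first in level. Expressed per transcript length in CD3-CD8- cells, Cd74 averaged 1157.3 FPKM in treated libraries and 4000.5 FPKM in untreated ones, followed by H2-Aa at 1030.9 FPKM in treated and 2094.1 FPKM in untreated libraries. In treated libraries those 2 genes lay within each other's spread, at 1060.5 to 1314.2 FPKM for Cd74 and 920 to 1122.2 FPKM for H2-Aa. H2-Eb1 (645.4 FPKM in treated, 1469.4 FPKM in untreated libraries) and H2-Ab1 (539.9 FPKM in treated, 1140.9 FPKM in untreated libraries) came next and overlapped in both. H2-M and H2-O chains lay lower, between 24.5 FPKM for H2-DMb1 and 100.6 FPKM for H2-Ob in treated cells. Ciita was the lowest of the 10, at 7.1 ± 0.714 FPKM in treated and 24.4 ± 6.1 FPKM in untreated libraries (SD, n = 3 each).

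H2-Aa, the alpha chain of I-A, had 854.7, 1221.4 and 1225.8 CPM in treated CD3-CD8- libraries 2, 11 and 19, against 1724.1, 2141.2 and 2323 CPM in untreated libraries 1, 5 and 18. Treated library 2 was the lowest, and no treated library reached an untreated one. The log2 fold change was −1 (SE 0.26, edgeR adjusted p = 0.0292). H2-Ab1, the beta chain that pairs with it, had 282.3, 454.6 and 506.1 CPM in treated libraries and 1071.4, 1407.5 and 987.5 CPM in untreated ones. The highest treated value lay far below every untreated one, with a log2 fold change of −1.56 (SE 0.26, edgeR adjusted p = 0.0104). The larger drop of H2-Ab1 than of H2-Aa depended on the measure. In counts, H2-Aa over H2-Ab1 was 2.42 to 3.03 in treated and 1.52 to 2.35 in untreated libraries. In FPKM this ratio overlapped, at 1.6 to 2.56 in treated and 1.59 to 2.49 in untreated libraries. H2-Eb1, the I-E beta chain, had 514.4, 770.8 and 827.8 CPM in treated libraries and 1204.5, 1518.5 and 1628.4 CPM in untreated ones. It moved with the I-A chains, by −1.14 on the log2 scale (SE 0.26, edgeR adjusted p = 0.021), again without overlap.

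Cd74, the invariant chain, had 1087.5, 1326.4 and 1542.7 CPM in treated CD3-CD8- libraries 2, 11 and 19, against 3359.6, 5000.4 and 4236.2 CPM in untreated libraries 1, 5 and 18. The highest treated value was below the lowest untreated one by more than the range of the treated group. Its log2 fold change was −1.76 (SE 0.27, edgeR adjusted p = 0.00964). Ciita, the coactivator, had 40.8, 44.3 and 50.8 CPM in treated libraries and 108.6, 142 and 117.6 CPM in untreated ones. It had the smallest standard error of the 10 genes, and its log2 fold change was −1.52 (SE 0.16, edgeR adjusted p = 0.00732).

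H2-DMa, the alpha chain of the peptide exchanger H2-M, had 38.3, 55.3 and 67.5 CPM in treated CD3-CD8- libraries and 124.6, 160.8 and 138 CPM in untreated ones. Its groups stood well apart, with a log2 fold change of −1.48 (SE 0.22, edgeR adjusted p = 0.00915). The alternative beta chains fell too: H2-DMb1 by 1.37 on the log2 scale (SE 0.28, edgeR adjusted p = 0.0148) and H2-DMb2 by 1.24 (SE 0.21, edgeR adjusted p = 0.0108). H2-DMb1 had 16.5 to 37.2 CPM in treated and 57.7 to 71.3 CPM in untreated libraries, and H2-DMb2 had 96.5 to 122.8 CPM in treated and 184.2 to 280.7 CPM in untreated ones. These 2 genes share 369 windows of 50 bases, 27.23% of those of H2-DMb1 and 21.19% of those of H2-DMb2, so the authors' counting may have split or dropped reads between them. H2-DMa shares 10.4% of its exonic bases with Brd2 on the other strand, and the library kit does not mark strand.

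Of the chains of H2-O, the inhibitor of H2-M, only H2-Oa passed the test. H2-Oa, the alpha chain, had 25.4, 30.4 and 33 CPM in treated CD3-CD8- libraries and 57, 97.4 and 86.3 CPM in untreated ones, a log2 fold change of −1.53 (SE 0.24, edgeR adjusted p = 0.00964). H2-Ob, the beta chain, had 264.4, 264.2 and 307.3 CPM in treated libraries and 305.8, 476.5 and 442.2 CPM in untreated ones. The highest treated H2-Ob value lay just above the lowest untreated one, and its log2 fold change of −0.64 did not pass the test (SE 0.22, edgeR adjusted p = 0.0702). H2-Ob over H2-Oa, per transcript length, was 3.07 to 3.73 in treated libraries and 1.78 to 1.90 in untreated ones, which did not overlap (no test was run on this ratio). H2-Oa shares 22.8% of its exonic bases with the antisense gene BC051537, so its counts may hold reads of that gene.

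**Figure D2:**
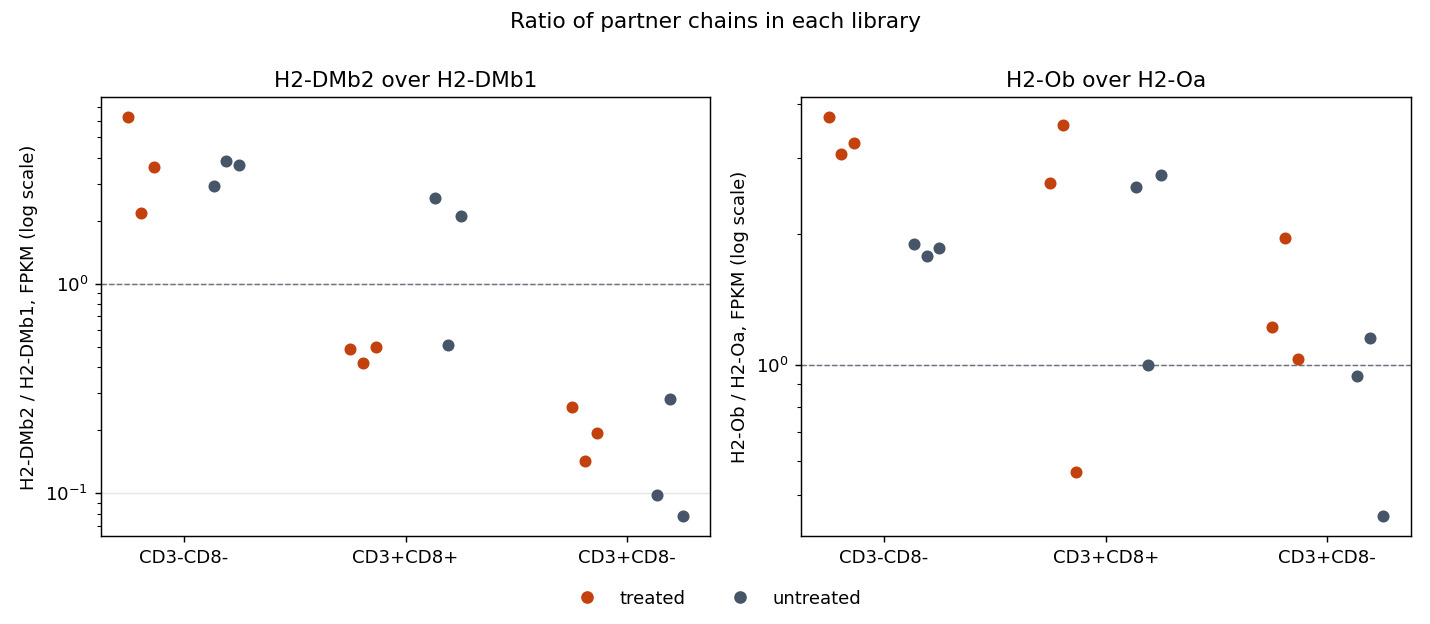
Ratio of partner chains per transcript length (FPKM over FPKM, log axis) in each of the 18 libraries, treated left of untreated within each sorted fraction; the dashed line marks a ratio of 1. H2-Ob over H2-Oa was higher in every treated CD3-CD8- library than in any untreated one, and H2-DMb2 exceeded H2-DMb1 in every CD3-CD8- library.

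Most B cell genes moved with the class II genes in CD3-CD8- cells. Of 13 B cell markers, 11 fell, beside 15.3% of all genes tested, none rose, and the markers' median log2 fold change was −1.01. The 11 calls became 0 without untreated library 5, 3 without treated library 2, 6 without treated library 11, and 7 without untreated library 18 or treated library 19. They became 3 with a correction for transcript GC content and 0 in a fit of all 18 libraries, in FPKM or when libraries were scaled to the summed markers, while the median stayed between −1.16 and −0.75 in each of these except that scaling, where it was −0.1. Their summed level was 1659.2 to 2383.2 CPM in treated and 2856.1 to 3764.2 CPM in untreated libraries. Cd79a, a signalling chain of the B cell receptor, had 116.2, 93.5 and 155.2 CPM in treated libraries 2, 11 and 19, against 253.7, 392.2 and 336.2 CPM in untreated libraries 1, 5 and 18. The exceptions were Bank1, an adaptor of B cell receptor signalling, with a log2 fold change of −0.39, and Ms4a1, which encodes CD20. Ms4a1 had 501.8, 457.4 and 644.5 CPM in treated libraries and 624, 571.2 and 527.5 CPM in untreated ones, with a log2 fold change of −0.18 (SE 0.18, edgeR adjusted p = 0.479).

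Markers of other class II-bearing cells fell in part, in a comparison where 15.3% of all genes were called lower and 25.6% in either direction. In the Kupffer cell list 3 of 7 fell, led by Timd4, a receptor for dying cells (−4.85 on the log2 scale). Timd4 was at 0.17 to 0.529 CPM in treated libraries, where 3 counts correspond to 0.0992 to 0.601 CPM. Clec4f (−1.46), Vsig4 (−1.22), Folr2 (−0.52) and Cd5l (−0.49) did not pass. The list's sum overlapped, at 67.8 to 343.3 CPM in treated and 214.5 to 717.5 CPM in untreated libraries. In the monocyte and macrophage list 4 of 11 fell, C1qa, C1qb, C1qc and Cd68, with sums of 1101.6 to 3012.6 CPM in treated and 1449.9 to 2272.4 CPM in untreated libraries. In the conventional dendritic cell list 4 of 11 fell, Fscn1, Batf3, Wdfy4 and Ccr7. Clec9a (0.79), Xcr1 (0.73), Zbtb46 (−0.25), Flt3 (−0.3), Itgax (−0.35), Clec10a (−0.8) and Cd209a (−1.07) did not pass. The list's sums were 268.5 to 399.5 CPM in treated and 501 to 554 CPM in untreated libraries. Wdfy4 alone held 76 to 128.8 CPM in treated and 203.7 to 254.9 CPM in untreated ones. Ccr7 held 40.1 to 72.6 CPM in treated and 84.3 to 133.5 CPM in untreated ones. It was not lower in CD3+CD8+ libraries, at 49.6 to 150.6 CPM in treated and 73.7 to 165 CPM in untreated ones. Batf3 was at 0.085 to 0.43 CPM in treated libraries, near the level of 3 counts. No marker of these lists was called higher, and none was at 0 in all 3 libraries of a group. T cell markers rose in 5 of 8 cases, and neutrophil markers in 3 of 7, with neutrophil sums of 589 to 20064.5 CPM in treated and 122.4 to 746.9 CPM in untreated libraries. Of the plasma cell markers 2 of 5 fell, of the NK cell markers 1 of 5 fell and 1 rose, of the plasmacytoid dendritic cell markers 1 of 6 rose, and of the hepatocyte markers none of 6 passed. The part of these cell types in the fall of the class II genes was not tested.

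Set against Ms4a1 as a measure of B cell content, 9 of the 10 genes were lower in every treated CD3-CD8- library than in any untreated one. Of all genes tested, 15.9% were lower without overlap relative to Ms4a1. Ms4a1 had the smallest drop of the 13 B cell markers, −0.18 against a median of −1.01. With the correction for transcript GC content it moved to −0.69, beside medians of −0.85 over the 10 genes and −0.75 over the B cell markers. The ratios given here carry no such correction. Counts of Cd74 per count of Ms4a1 were 2.17, 2.9 and 2.39 in treated libraries 2, 11 and 19, against 5.38, 8.75 and 8.03 in untreated libraries 1, 5 and 18. The mean log2 ratio was lower by 1.55 in treated cells, a fold of 0.341 (exact permutation test, two-sided, p = 0.1, the smallest that 3 against 3 libraries allow). Ciita per Ms4a1 was 0.0813, 0.0968 and 0.0788 in treated libraries and 0.174, 0.249 and 0.223 in untreated ones, a fold of 0.401 with the same exact p. H2-Ab1 per Ms4a1 was 0.563 to 0.994 in treated and 1.72 to 2.46 in untreated libraries. H2-Ob per Ms4a1 overlapped between groups, at 0.477 to 0.577 in treated and 0.49 to 0.838 in untreated libraries (exact permutation p = 0.3).

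The size of these drops changed with the B cell gene they were set against. Relative to Cd79a, none of the 10 genes was lower without overlap, and H2-Aa, H2-DMb2 and H2-Ob were higher in every treated library than in any untreated one, while of all genes tested 0.493% were lower and 70.3% higher without overlap on that ratio. Ciita per Cd79a was 0.351, 0.473 and 0.327 in treated libraries and 0.428, 0.362 and 0.35 in untreated ones, a difference of 0 in mean log2 ratio, and Cd74 per Cd79a was 9.36 to 14.2 in treated and 12.6 to 13.2 in untreated libraries. Relative to the sum of the 13 B cell markers, the genes lower without overlap were H2-Ab1, H2-DMa, H2-DMb2, H2-Oa, Cd74 and Ciita, with mean log2 differences of −0.33 for H2-DMb2 to −0.86 for Cd74. H2-Ob was higher without overlap there too, by 0.28. Of all genes tested, 2.84% were lower and 52.7% higher without overlap relative to that sum.

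**Figure D3:**
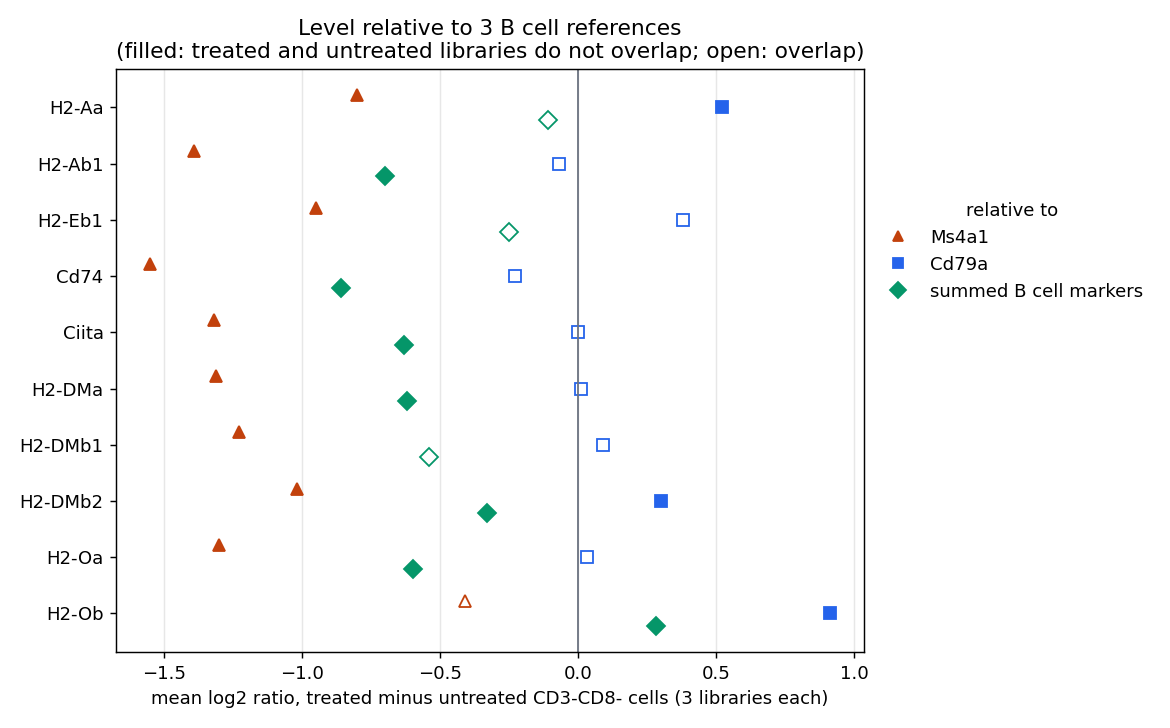
Treated minus untreated difference in mean log2 ratio for each gene in CD3-CD8- cells, relative to Ms4a1, Cd79a or the sum of 13 B cell markers; filled symbols mark groups of 3 libraries that do not overlap. Relative to Ms4a1 every gene lies below 0, and relative to Cd79a the genes scatter between −0.23 for Cd74 and 0.91 for H2-Ob.

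Ciita was also set against the genes it controls. In counts of CD3-CD8- libraries, Ciita per H2-Ab1 differed by 0.07 in mean log2 ratio between treated and untreated cells (exact permutation p = 1). Ciita per Cd74 differed by 0.23, with treated libraries higher without overlap (exact permutation p = 0.1). Both results depended on the measure. Set against Ms4a1 in counts, the mean log2 ratio changed by −1.32 for Ciita, −1.39 for H2-Ab1 and −1.55 for Cd74. In FPKM the changes were −1.52, −0.85 and −1.53, so there Ciita fell more than H2-Ab1 and about as much as Cd74. Across the 18 libraries, Pearson correlations of log2 CPM between pairs of the 10 genes ran from 0.675 to 0.994 with a median of 0.92 over 45 pairs. All pairs share library, depth and sorted fraction.

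The calls in CD3-CD8- cells rested on the scaling and on some libraries. With the correction for transcript GC content, which was 48.1 to 57.4% in the 10 genes and 41.2% in Ms4a1, the genes ranged from −1.08 to −0.61, Ms4a1 moved to −0.69, and only Ciita was called (−0.9, SE 0.15, edgeR adjusted p = 0.036) among 424 genes. Scaled to the summed B cell markers, which put the median of all genes at 0.82, none of the 10 was called and they ranged from −0.85 to 0.28. Without untreated library 5, 239 genes were called, Ciita alone of the 10 (−1.41, edgeR adjusted p = 0.0332), and the other 9 had values of −1.62 to −0.53. Without treated library 2, 910 genes and 7 of the 10 were called, and without treated library 19, 1185 genes and 6 of the 10. In a fit of all 18 libraries 76 genes and none of the 10 were called.

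**Figure D4:**
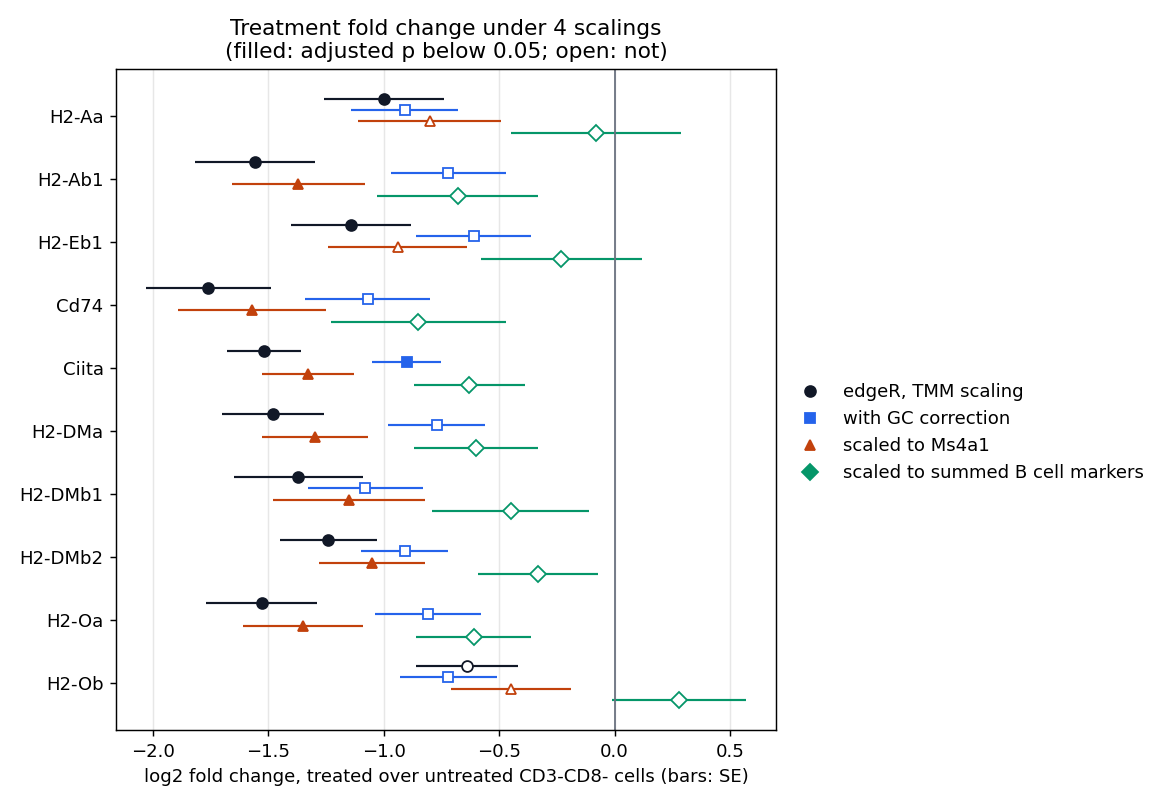
Log2 fold change, treated over untreated, of each gene in CD3-CD8- cells with its SE (bars) under 4 scalings; filled symbols have an edgeR adjusted p below 0.05. With TMM 9 genes are filled, with the GC correction only Ciita, scaled to Ms4a1 7 genes, and scaled to the summed B cell markers none, with H2-Ob above 0.

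Upstream of class II, most factors that recruit CIITA did not pass the test in CD3-CD8- cells. Of 7 genes of the RFX, NF-Y and CREB complex, only Nfya, a subunit of NF-Y, passed the test and fell (−0.66, edgeR adjusted p = 0.0274). That count is near the share of all genes called lower (15.3%), and the list's median log2 fold change was −0.21. Rfxank (−0.60), Nfyb (0.66) and Nfyc (−0.34) did not pass.

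Genes known to control Ciita moved in both directions. Of 16, 7 fell and 2 rose, with a median of −0.84, beside 15.3% of all genes called lower and 25.6% called in either direction. Prdm1, which encodes Blimp-1, a repressor of Ciita in plasma cells, had 58, 41.7 and 43.3 CPM in treated libraries 2, 11 and 19, against 15.7, 18.7 and 9.35 CPM in untreated libraries 1, 5 and 18 (log2 fold change 1.65, edgeR adjusted p = 0.00915). Spib, an ETS factor of B cells, had 43.5, 46.5 and 72.4 CPM in treated and 104, 155 and 129.8 CPM in untreated libraries (−1.35, edgeR adjusted p = 0.0117). Neither gene overlapped between the groups. Usf1, an E-box factor that binds a Ciita promoter, fell by 1.01 (edgeR adjusted p = 0.0104), and Pax5, a B cell identity factor, by 1.25 (edgeR adjusted p = 0.0168). Pax5 and Ebf1 are also among the B cell markers. Prdm1 is also expressed by activated T cells, whose markers rose in these libraries, and its source was not tested.

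Along the rest of the pathway fewer genes passed. Of all genes tested in this comparison, 15.3% were called lower and 25.6% in either direction. Of 13 genes that process antigen for class II, 2 fell, near the share of all genes called lower. They were Ctsz, a lysosomal carboxypeptidase (−1.39, edgeR adjusted p = 0.012), and Ifi30, the lysosomal thiol reductase GILT (−0.85, edgeR adjusted p = 0.0436). Sppl2a, which removes the last membrane stub of the invariant chain (0.31), and Lamp1, a lysosomal membrane protein (−0.62), did not pass, and the list's median was −0.50. Of 3 genes that set class II turnover, March1, a ubiquitin ligase that sends class II to lysosomes, fell (−0.51, edgeR adjusted p = 0.0411), while Cd83, which opposes it, had −0.37 and March8 −0.82. Of 3 ligands and coreceptors, Lag3, an inhibitory T cell receptor for class II, rose (1.74, edgeR adjusted p = 0.0438), and Cd4 (0.68) and Fcrl6 (−0.39) did not pass. T cell markers also rose in these libraries (median log2 fold change 1.41), and the source of Lag3 was not tested. H2-Eb2, another beta chain gene of the region, was at 54.9 to 62 CPM in treated and 56.8 to 82.8 CPM in untreated libraries (−0.42, edgeR adjusted p = 0.152).

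In CD3+CD8+ cells, no gene passed the test, and the 10 genes had log2 fold changes of −3.42 for H2-DMb2 to −1 for H2-DMb1, with a median of −2.29. Of 10654 genes tested, edgeR called 0 (0%), with 624 below an unadjusted p of 0.05 and 0.273 as the smallest adjusted p, while DESeq2 called 98 genes, 5 of the 10 among them. H2-Aa, H2-Ab1, H2-Eb1, H2-DMb2, H2-Ob and Cd74 were lower without overlap in treated libraries, as were 3.03% of all genes. H2-Aa had 100.9, 92.1 and 119.3 CPM in treated CD3+CD8+ libraries 11, 2 and 19, against 172.5, 164 and 823 CPM in untreated libraries 1, 5 and 18. In this fraction 6 plasmacytoid dendritic cell markers summed to 265.9 to 387.2 CPM in treated and 447.6 to 743.9 CPM in untreated libraries. Of these markers, 1 had a positive and 5 a negative log2 fold change, and none was called. Their sums in CD3-CD8- cells were 69.9 to 177.8 CPM in treated and 108.7 to 138.7 CPM in untreated libraries. Untreated library 18, one of those rich in ribosomal counts, stood above the other untreated libraries for each of the 10 genes. It also held 1601 CPM of summed B cell markers, against 58.5 to 72.5 CPM in treated libraries and 67.9 and 183.3 CPM in the other untreated ones. Ms4a1 there was at 334.2 CPM. Without that library the 10 genes ranged from −1.86 to −0.27, without untreated library 5 edgeR called 180 genes and 3 of the 10, and without both untreated libraries rich in ribosomal counts, which leaves 1 untreated library assumed to vary like the treated ones, from −1.46 to −0.17.

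In CD3+CD8- cells treatment left the 10 genes without a called difference, and the groups overlapped for each. Log2 fold changes ran from −0.57 for H2-Oa to 0.72 for H2-DMb2, with a median of 0.02. Of 11197 genes edgeR called 0 (0%), with 198 below an unadjusted p of 0.05, and DESeq2 called 2. Cd74 had 209.3, 225.8 and 557.1 CPM in treated CD3+CD8- libraries 11, 2 and 19, against 592.6, 306.1 and 322.9 CPM in untreated libraries 5, 18 and 6. Treated library 19 and untreated library 5 were the high ones in their groups. Without the library labelled untreated CD3+CD8- 6 the 10 genes ranged from −0.49 to 0.43 and none was called. This fraction also held myeloid transcripts. Its 11 monocyte and macrophage markers summed to 3076.1 to 5036.8 CPM in treated and 2173.4 to 3717.6 CPM in untreated libraries, with 4 positive and 7 negative log2 fold changes, a median of −0.31 and none called. Its 7 neutrophil markers summed to 10535.7 to 32072.9 CPM in treated and 2660.3 to 14409.6 CPM in untreated libraries, with 7 positive log2 fold changes, a median of 1.31 and none called. Its 13 B cell markers summed to 45.6 to 73.4 CPM in treated and 48.8 to 82.1 CPM in untreated libraries. Its 6 plasmacytoid dendritic cell markers summed to 160.1 to 323.6 CPM in treated and 111.2 to 801 CPM in untreated libraries. Of those 6, 1 had a positive and 5 a negative log2 fold change, and none was called. The cells that carry the class II RNA of the CD3+ sorts were not tested.

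Whether treatment acted differently in CD3-CD8- cells was tested as a contrast of the treatment effects over all 18 libraries. Against CD3+CD8+ cells the difference ran from −0.45 for H2-DMb1 to 2.04 for H2-DMb2, and against CD3+CD8- cells from −1.96 for H2-DMb2 to −0.81 for H2-Ob. edgeR called 0 of 13181 genes (0%) in either contrast, with 515 and 503 below an unadjusted p of 0.05, and DESeq2 called 1 and 28. The drop in CD3-CD8- cells is therefore not shown to differ from the change in the other fractions. Both contrasts share the CD3-CD8- libraries.

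Between fractions, all 10 genes were highest in CD3-CD8- cells in both kinds of mice. In treated mice, edgeR called all 10 higher in CD3-CD8- than in CD3+CD8+ cells, beside 4.24% of 13181 genes, by 2.16 for H2-DMb1 to 5.19 for H2-DMb2 on the log2 scale. Against CD3+CD8- cells it called 3 higher in treated mice, beside 0.652% of genes: H2-DMb2 (4.93, SE 0.73, edgeR adjusted p = 0.00415), H2-Ob (4.29, SE 0.61, edgeR adjusted p = 0.00319) and H2-Oa (2.92, SE 0.57, edgeR adjusted p = 0.0196). With the library number as a replicate block, 7 were called, beside 1.87% of genes, the added ones being H2-Aa (1.97), H2-Ab1 (1.84), H2-Eb1 (2.36) and H2-DMa (1.41), with edgeR adjusted p of 0.0201 to 0.0306. The 3 same-numbered pairs of this contrast had correlations of deviations of 0.162, 0.173 and 0.387. Without the block, the other 7 had log2 fold changes from 0.39 for H2-DMb1 to 2.18 for H2-Eb1, and only H2-DMb1 overlapped between these fractions, while 12.4% of all genes were higher without overlap. In untreated mice, all 10 were called higher in CD3-CD8- cells against CD3+CD8+ cells, by 2.11 to 3.14 beside 2.31% of genes, and against CD3+CD8- cells, by 1.92 to 6.89 beside 1.46% of genes. Without the library labelled untreated CD3+CD8- 6, 9 were called in the last of these, and Ciita (3.06) was not. With the block all 10 were called in treated mice against CD3+CD8+ cells (6.3% of genes) and in untreated mice against CD3+CD8+ (6.93%) and CD3+CD8- cells (4.86%). Against treated CD3+CD8- cells the count was 2 when any 1 CD3+CD8- library or treated CD3-CD8- library 19 was left out, and against untreated CD3+CD8- cells it was 6 without untreated CD3+CD8- library 18 or CD3-CD8- library 5. Against untreated CD3+CD8+ cells, 2 of the 10 were called in a fit of only the libraries of those groups, and without 1 library at a time 2 to 10 were. The lowest count, 2, came without untreated CD3+CD8+ library 1, and without untreated CD3-CD8- library 5 or 18 it was 3.

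**Figure D5:**
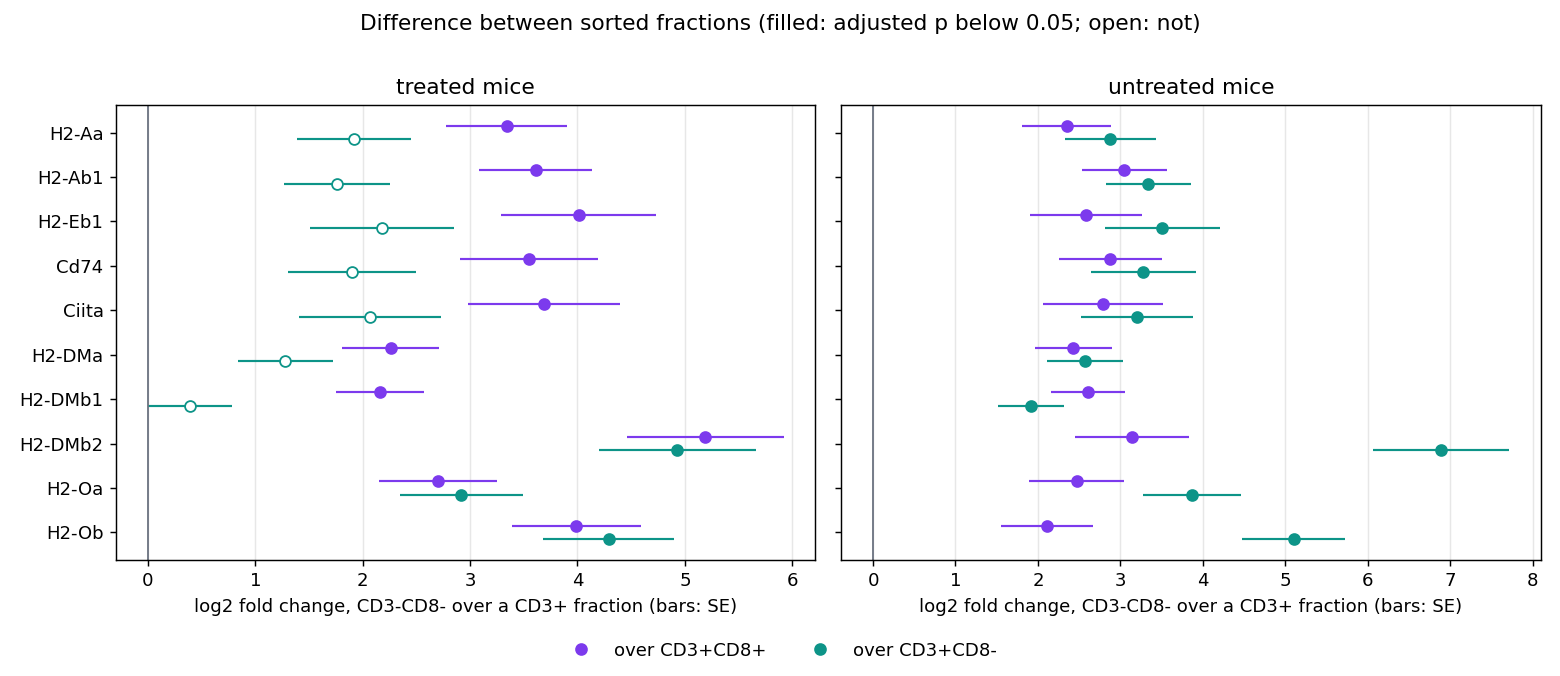
Log2 fold change of each gene, CD3-CD8- over CD3+CD8+ cells and CD3-CD8- over CD3+CD8- cells, with its SE (bars), in treated mice on the left and untreated mice on the right; filled symbols have an edgeR adjusted p below 0.05. All 10 genes are filled except 7 against treated CD3+CD8- cells, where H2-DMb1 lies near 0 and H2-DMb2 at 4.93.

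The ratio of the H2-M beta chains was high in CD3-CD8- and low in CD3+CD8- libraries, given here as values with no test. Per transcript length, H2-DMb2 over H2-DMb1 was 2.17, 3.62 and 6.23 (lowest, median, highest) in treated and 2.94, 3.71 and 3.85 in untreated CD3-CD8- libraries. In CD3+CD8- libraries the order of the chains was the opposite, with ratios of 0.142 to 0.258 in treated and 0.0777 to 0.283 in untreated mice, which did not overlap those of CD3-CD8- libraries. H2-DMb2 itself was at 1.62, 2.47 and 4.95 CPM in treated and 0.794, 1.6 and 3.14 CPM in untreated CD3+CD8- libraries, where 3 counts correspond to 0.167 to 0.97 CPM in treated and 0.342 to 1.19 CPM in untreated libraries. In CD3+CD8+ libraries the ratio was 0.418 to 0.497 in treated mice and 0.513, 2.1 and 2.57 in untreated ones, with library 18 at 2.1, library 1 at 2.57 on 4 counts of H2-DMb1, and library 5 at 0.513. H2-Ob over H2-DMa, the inhibitor against its target, was 1.24 to 2.05 in treated and 0.954 to 1.12 in untreated CD3-CD8- libraries and stayed at or below 0.352 in every CD3+CD8- library.

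Within the set, the genes most like Ciita over the 18 libraries, by Pearson correlation of log2 CPM, were Cd74 (0.986), H2-Eb1 (0.972) and H2-Ab1 (0.971), and those most like H2-Ab1 were Cd74 (0.991), H2-Eb1 (0.987) and H2-Aa (0.982). Among the 7927 genes outside the set, those most like Ciita were Wdfy4 (0.968), Icosl (0.967), Ighm (0.955), Mzb1 (0.952), Napsa (0.949), Siglecg (0.946), Cd79a (0.945) and 5031414D18Rik (0.942). For H2-Ab1 they were Napsa (0.973), Icosl (0.971), Mzb1 (0.97), Ighm (0.968), 5031414D18Rik (0.958), Myo1c (0.954), Wdfy4 (0.952) and Mtss1 (0.95). Ighm encodes the IgM heavy chain, Mzb1 a chaperone of immunoglobulin assembly, Siglecg an inhibitory lectin of B cells and Icosl the ligand of the T cell costimulator ICOS. Wdfy4 is needed for cross-presentation in dendritic cells. The 18 points share library depth and sorted fraction, and the correlations carry no test.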

How the data were processed

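RNA-seq was done on sorted CD45+ liver cells, 18 libraries in 6 groups of 3; per the labels, RNA came from the RNeasy Plus Micro kit and libraries from TruSeq v2. The deposited table of counts holds whole-number counts per gene in 40 library columns; 18 belong to these libraries, and the other 22 stayed unused. A second deposited table gives FPKM by gene, as the authors computed it, with symbols and loci (23 of its value columns stayed unused). Tools in the submitters' processing notes, listed without roles, are HTSeq 0.13.5, Trim Galore 0.6.7, DESeq2 3.20 and Cufflinks 2.2.1; the sources used here do not give the aligner, the genome build or the strand setting of the counting.

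Counts as deposited were fitted with edgeR 4.0.16 in R 4.3.3 (filterByExpr, TMM, quasi-likelihood F-test, two-sided, Benjamini-Hochberg adjustment over all genes tested, called below 0.05), and checked with DESeq2 1.42.0 and limma 3.58.1. Treatment was tested on each fraction's 6 libraries; fractions and differences in treatment effect were tested on all 18. Ratios were tested with exact permutation over libraries. The procedure was also run on simulated counts with known changes. These had a single dispersion and otherwise the same gene proportions in every library. They held no libraries rich in ribosomal counts or mixed in cell content, so they do not speak to the effects of such libraries. FPKM was tested with limma after log2(FPKM + 1), keeping genes whose mean reached 1 FPKM. Other alternatives were DESeq2 size factors, library totals, no filter, a filter of 5 CPM in 3 libraries, lane, GC content (a spline with 5 degrees of freedom), scaling to B cell genes, and leaving out libraries; 1 further planned ratio partner is not reported here. The genes of the set, the lists and the tests were chosen with earlier results of these data known. Genes named are the 10 members, Ms4a1, the 4 of smallest p in each pathway list, and the 8 outside the set most like Ciita or H2-Ab1 where the mean log2 CPM reached 3; cell markers and ratio partners are named besides. Same-numbered libraries had correlations of deviations from group means over 0.1 in all 3 pairs of each contrast with CD3-CD8- cells that has 3 pairs, so block fits are given beside those results; the pairing comes from the data, since the labels do not say what a number marks. Nothing says that libraries of a group came from separate mice, so p-values measure the spread between these libraries, which may be technical. The CPM that 3 counts give, on the same TMM scale as the levels, is used as the limit of detection and covers counting error only.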

Additional observations from a re-analysis of the deposited data

How the results depend on the processing

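In CD3-CD8- cells all 10 genes kept a negative fold change with treatment under every alternative except scaling to the summed B cell markers (H2-Ob 0.28). The genes called, 3522, became 2045 with library totals, 5479 with DESeq2, 6399 with limma voom, 76 with all 18 libraries (0 members), 247 with FPKM (4 members), 424 with the GC correction (1 member) and 6138 scaled to the B cell markers (0 members); leaving out 1 library gave 239 to 3183 genes and 1 to 10 members. In CD3+CD8+ cells, 0 calls became 5 with library totals, 98 with DESeq2 (5 members), 197 with voom (2 members), 380 with no filter (7 members), and 15 both with all 18 libraries and with FPKM; leaving out 1 library gave 0 to 180 genes and 0 to 3 members. Signs turned there with library totals, which put the median of all genes at 1.17 (H2-DMb1 0.45), and with FPKM, where that median was 1.46 (H2-Aa 0.56, H2-Ab1 0.6, H2-Eb1 0.13, H2-DMa 0.63, H2-DMb1 0.56, Cd74 0.03). Depth limits the low genes of the CD3+ fractions, where 3 counts are 0.109 to 0.97 CPM in treated and 0.311 to 5.39 CPM in untreated libraries; H2-DMb2 in untreated CD3+CD8- library 6 (0.794 CPM) lies below its library's 1.19 CPM. In CD3+CD8- cells, 0 calls became 7 with library totals, 2 with DESeq2, 195 with no filter and 45 with FPKM, and no member was called. Signs there turned with library totals (H2-Ab1 −0.37, H2-Eb1 −0.16, H2-DMb1 −0.28, H2-Ob −0.6), voom (H2-Ab1 −0.19, H2-Eb1 −0.12), FPKM (H2-Ab1 −0.71, H2-Eb1 −0.62, H2-DMb1 −0.37, H2-Ob −0.45), lane (H2-Ab1 −0.05), without the library rich in ribosomal counts (H2-Ob −0.15) and without untreated number 6 (H2-Ab1 −0.03). Leaving out 1 library gave ranges across 0 for H2-Aa (−0.39 to 0.18), H2-Ab1 (−0.45 to 0.24), H2-Eb1 (−0.49 to 0.53), H2-DMa (−0.75 to 0.08), H2-DMb1 (−0.07 to 0.51), H2-Ob (−0.15 to 0.53), Cd74 (−0.87 to 0.09) and Ciita (−0.69 to 0.22). The cause of these changes was not tested.

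Differences in treatment effect, 0 calls in each contrast, gave 1 (against CD3+CD8+ cells) and 28 (against CD3+CD8- cells) with DESeq2, 171 (1 member) and 160 with no filter, and 37 against CD3+CD8- cells with library totals; leaving out 1 library gave 0 to 2 against CD3+CD8+ cells. Signs against CD3+CD8+ cells turned with library totals (H2-Aa −1.02, H2-Ab1 −1.45, H2-Eb1 −0.82, H2-DMb2 −0.27, H2-Oa −1.14, H2-Ob −0.18, Cd74 −1.44, Ciita −1.2) and without the libraries rich in ribosomal counts (H2-Aa −0.28, H2-Ab1 −0.64, H2-Eb1 −0.49, H2-DMb2 −0.8, H2-Oa −0.07, Cd74 −0.79, Ciita −1.36). Leaving out 1 library gave −0.29 to 1.39 for H2-Aa, −0.44 to 0.98 for H2-Ab1, −0.3 to 1.91 for H2-Eb1, −0.62 to 0.44 for H2-DMa, −0.43 to 1.44 for H2-Oa, −0.67 to 1.23 for Cd74 and −0.77 to 1.82 for Ciita.

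Between fractions every member kept a positive fold change. Genes called in treated mice against CD3+CD8+ cells, 651, became 412 with library totals and 1019 with no filter (242 to 685 without 1 library); against CD3+CD8- cells 162 became 616 with DESeq2 (7 members) and 1072 with no filter (9 members), with 5 members from only the libraries compared (46 to 212 genes without 1 library). In untreated mice against CD3+CD8+ cells 602 became 1073 with library totals, 1191 with DESeq2, 1633 with no filter and 169 (2 members) from only the libraries compared, and 107 to 984 (2 to 10 members) without 1 library; against CD3+CD8- cells 417 became 149 (3 members) with library totals, 754 with DESeq2 and 863 with no filter, and 92 to 554 (6 to 10 members) without 1 library.

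Ratios to Ms4a1, lower without overlap for 9 members, gave 0 with Cd79a and 6 with the summed B cell markers. Signs turned with Cd79a (H2-Aa 0.52, H2-Eb1 0.38, H2-DMa 0.01, H2-DMb1 0.09, H2-DMb2 0.3, H2-Oa 0.03, H2-Ob 0.91) and with the summed B cell markers (H2-Ob 0.28).

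Treated and untreated libraries share no number, so no block was possible there. Of 16 pairs of libraries with the same number, 14 had a correlation of deviations over 0.1 (−0.044 to 0.555), and 15 of 17 libraries correlated best with their own number. With the number as a replicate block, genes called were 1011 and 641 (7 members) in treated mice against CD3+CD8+ and CD3+CD8- cells, and 1538 and 1362 in untreated mice.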
